A study of Mus musculus with 42 samples.

Results

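The occupancy of 7 genes of the Notch pathway was described across SOX2, β-catenin and LEF1 ChIP-seq libraries: the ligands Dll1 and Dll3, the receptor Notch1, the sugar transferase Lfng and the transcription factors Hes1, Hes3 and Hes5. The genes were chosen by name, out of 21911 protein-coding genes of the annotation, and every peak that overlapped the body of a gene extended by 10 kb to each side was assigned to it. All 7 genes had peaks. Overlap with such a window gives where a peak lies and not which gene it acts on.

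The cells were mouse embryonic stem cells derived from the HM1 TetON line, which served as the WT, and were differentiated to an epiblast-like state with bFGF and the WNT secretion inhibitor LGK974 for 2 days. They were then given the GSK3 inhibitor CHIR99021, which activates WNT signalling (CHIR), or not (noCHIR), until collection at 72 h. SOX2, β-catenin and LEF1 were each precipitated from wild-type cells (WT), Cdx1/2/4-/- cells (CdxKO) and T/Bra-/- cells (T/BraKO) with CHIR, and SOX2 also from WT noCHIR cells. This gave 10 groups of 3 libraries, labelled as biological replicates, and the paper states that its triplicates came from separate experiments. In all 30 libraries were compared, and the 12 input samples were not analysed here. bFGF and LGK974 were common to all groups. Each genotype came from a cell line of its own, so that line and genotype cannot be told apart, and the WT CHIR libraries of a factor served as the reference in each of its comparisons. Peak lists carry no expression, so neither the gene deletions nor the cell type could be checked from them.

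Notch signalling passes between neighbouring cells: a Delta ligand on one cell binds a Notch receptor on the next, the receptor is cut, and its intracellular part joins RBPJ on DNA to activate targets such as the Hes repressors. In the caudal end of the embryo the pathway drives the segmentation clock of the presomitic mesoderm, in which Dll1, Dll3, Notch1, Lfng and Hes genes take part, and in neural progenitors Hes1, Hes3 and Hes5 hold back differentiation. SOX2 is a factor of pluripotent and neural progenitor cells, β-catenin carries the WNT signal into the nucleus, and LEF1 is one of the TCF/LEF proteins through which β-catenin reaches DNA.

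The deposited lists held 26940 to 1008922 peaks per library, so the 20000 peaks with the highest -log10 q of each list were compared, and the read depth behind them is unknown. Rank 1 is the strongest peak of a library. A gene or site without a peak among the 20000 best was placed just behind them, and a site was called in a library that had one of its 20000 best peaks there. The -log10 q at rank 20000 ran from 3.26 to 14.1 across libraries, so a call did not mean the same strength in each. The fold enrichment is the deposited ratio of the signal at the summit over the local background. Peaks that overlapped by at least 1 bp between libraries were merged, which gave 336403 sites in all, of which 85 lay at the 7 genes and 35 of those were called in at least 3 libraries.

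The sequences of the 10 sites that carry most of the results are given first, as 151 bases around the summit, read 5′ to 3′ on the strand of the gene from the RefSeq genome GRCm38.p6 (mm10). Sites are named by the distance in bp from the GENCODE start of the gene to the summit. Capitals mark exact matches to short consensus letters: CCATTGT or otherwise CCTTTGT for SOX factors, CTTTGAA or otherwise CTTTGAT for TCF/LEF factors, CAATAAA or otherwise CCATAAA or otherwise TAATAAA or otherwise TCATAAA for CDX factors, AGGTGTGA for T-box factors and TGGGAA for RBPJ, on either strand.

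Dll1 -3967, chr17:15380764-15380914 -: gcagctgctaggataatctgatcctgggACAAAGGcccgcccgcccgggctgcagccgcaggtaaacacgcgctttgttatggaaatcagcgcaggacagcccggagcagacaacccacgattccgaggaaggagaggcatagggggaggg
Dll3 +12148, chr7:28290015-28290165 -: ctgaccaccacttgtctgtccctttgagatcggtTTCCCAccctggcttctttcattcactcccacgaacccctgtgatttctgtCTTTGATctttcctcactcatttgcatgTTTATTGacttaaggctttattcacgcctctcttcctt
Notch1 +12478, chr2:26504110-26504260 -: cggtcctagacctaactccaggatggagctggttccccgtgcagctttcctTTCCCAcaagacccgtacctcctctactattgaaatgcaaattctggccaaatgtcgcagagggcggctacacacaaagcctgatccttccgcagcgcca
Notch1 +14158, chr2:26502430-26502580 -: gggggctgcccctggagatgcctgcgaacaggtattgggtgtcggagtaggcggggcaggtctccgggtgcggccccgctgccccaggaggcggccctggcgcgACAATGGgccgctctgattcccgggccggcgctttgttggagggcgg
Lfng -705, chr5:140606540-140606690 +: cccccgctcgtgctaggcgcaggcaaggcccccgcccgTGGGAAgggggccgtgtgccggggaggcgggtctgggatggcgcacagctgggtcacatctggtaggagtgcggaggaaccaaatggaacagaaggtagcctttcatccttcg
Lfng +4787, chr5:140612032-140612182 +: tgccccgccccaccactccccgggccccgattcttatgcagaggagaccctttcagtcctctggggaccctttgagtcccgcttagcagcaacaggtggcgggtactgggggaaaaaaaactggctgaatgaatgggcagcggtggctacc
Hes1 -1081, chr16:30063228-30063378 +: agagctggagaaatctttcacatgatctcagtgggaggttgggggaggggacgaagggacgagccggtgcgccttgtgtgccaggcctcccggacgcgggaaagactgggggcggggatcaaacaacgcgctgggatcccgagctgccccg
Hes3 +1078, chr4:152290509-152290659 -: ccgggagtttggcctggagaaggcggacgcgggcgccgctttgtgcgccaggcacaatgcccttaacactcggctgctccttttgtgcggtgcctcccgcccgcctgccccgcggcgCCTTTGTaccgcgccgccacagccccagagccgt
Hes5 -2480, chr4:154958368-154958518 +: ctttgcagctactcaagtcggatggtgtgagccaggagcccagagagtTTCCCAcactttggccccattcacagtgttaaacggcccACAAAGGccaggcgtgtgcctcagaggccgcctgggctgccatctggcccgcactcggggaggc
Hes5 -150, chr4:154960698-154960848 +: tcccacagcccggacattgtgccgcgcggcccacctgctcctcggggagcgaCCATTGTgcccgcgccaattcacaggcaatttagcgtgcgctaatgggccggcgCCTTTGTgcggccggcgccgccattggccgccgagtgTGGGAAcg

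The Dll1 and Notch1 +14158 sequences each hold 1 SOX match, the Dll3 sequence holds an RBPJ, a TCF/LEF and a CDX match, and the Hes5 -150 sequence holds 2 SOX matches and 1 RBPJ match. The Lfng +4787 and Hes1 -1081 sequences hold none of these letters. Within 100 bp of the summit, SOX letters were present at 9 of the 35 sites at the 7 genes called in at least 3 libraries (25.7%), against 22.0% of all 33410 sites called in as many. RBPJ letters, a short and frequent match, were present at 12 sites (34.3%) against 19.3% of all sites. The TCF/LEF letters were at 6 sites (17.1% against 25.5%), the CDX letters at 4 (11.4% against 11.3%) and the T-box letters at 1 (2.86% against 1.32%). A match is a description of the letters and not a bound site. Only these letters were searched for, so an unmarked stretch is not shown to lack a site of these factors.

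**Figure D1:**
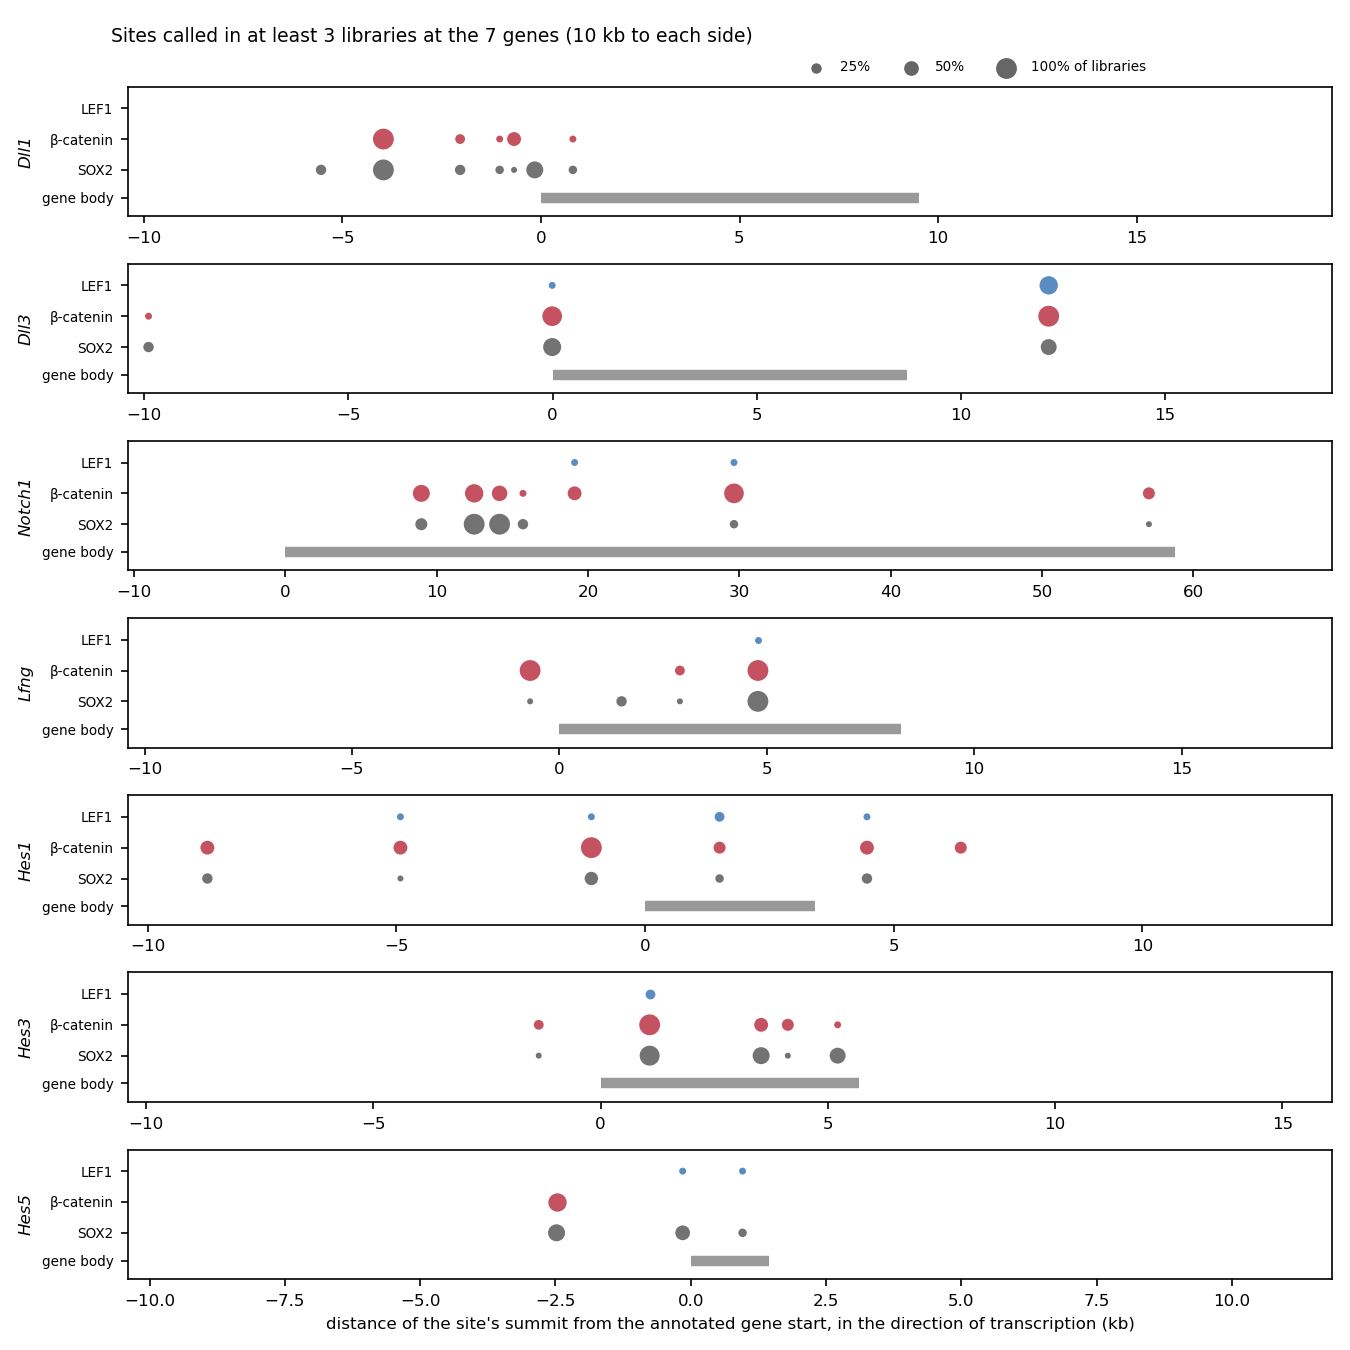
Sites at each gene called in at least 3 libraries, by distance of the summit from the gene start in kb, with 1 line per factor and the dot area giving the share of the 12 SOX2, 9 β-catenin or 9 LEF1 libraries that called the site. Large SOX2 and β-catenin dots stand together at Dll1, Dll3, Notch1, Lfng, Hes3 and Hes5. At Hes1 the site called in 9 of 9 β-catenin libraries was called in 5 of 12 SOX2 libraries. LEF1 has a large dot only at Dll3.

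Most of the 7 genes had SOX2 and β-catenin peaks in every library of a group, and fewer had LEF1 peaks. All 3 WT CHIR libraries had a SOX2 peak at 4 of the 7 genes (Dll1, Notch1, Lfng and Hes3), and all 3 had a β-catenin peak at 6 of them, all but Hes5. Among all genes, 18.1% had a SOX2 peak and 20.0% a β-catenin peak in all 3 such libraries. For LEF1, 1 of the 7 genes (Dll3) had a peak in all 3 WT CHIR libraries, where 13.5% of all genes did. In T/BraKO 2 of the 7 (Dll3 and Hes1) had a LEF1 peak in all 3 libraries, against 13.6% of all genes, and in CdxKO 0 did, against 14.3%, so the LEF1 counts lay on both sides of the share of all genes. All 7 genes had a SOX2 peak in 3 of 3 libraries of CdxKO and of T/BraKO, where 24.4% and 22.5% of all genes had one. In noCHIR cells 6 of the 7 did, against 25.3% of all genes. The Notch1 window spans 78.8 kb and the others 21.4 to 29.5 kb, and a longer window holds more peaks.

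**Figure D2:**
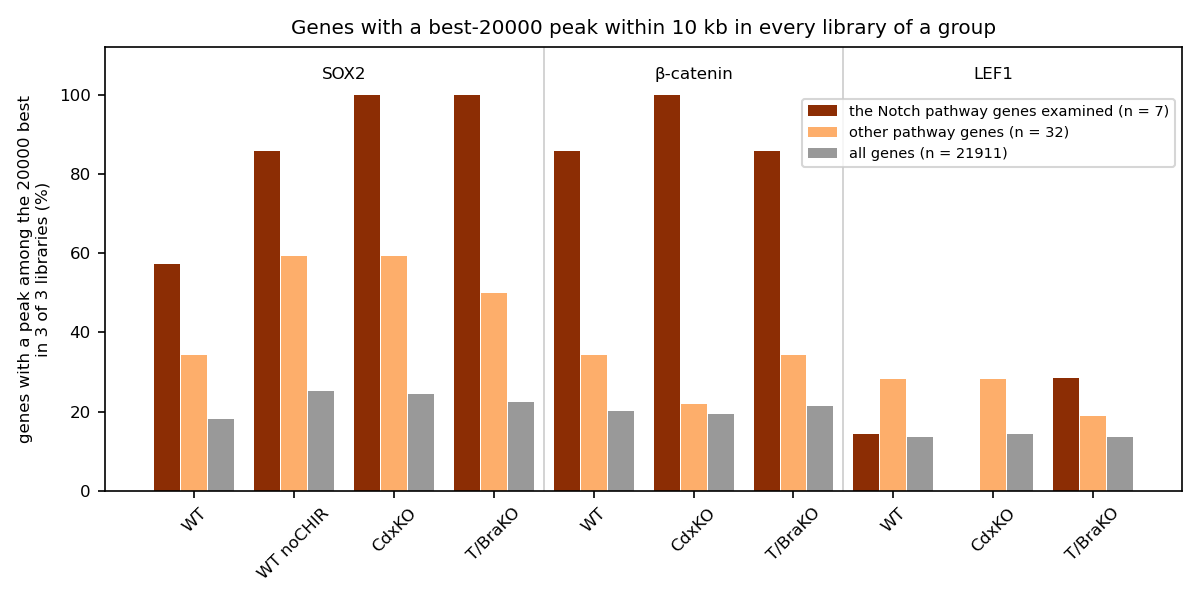
Percent of genes with a peak among the 20000 best in all 3 libraries of a group, for the 7 genes, the other 32 genes of the Notch pathway and all 21911 protein-coding genes. In the 7 SOX2 and β-catenin groups the 7 genes stand at 57.1% to 100%, the other pathway genes at 21.9% to 59.4% and all genes at 18.1% to 25.3%. In the 3 LEF1 groups the 7 genes stand at 0% to 28.6%, the other pathway genes at 18.8% to 28.1% and all genes at 13.5% to 14.3%.

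The count of peaks depended on how far down a list was read. Among the 20000 best, the 7 loci held a mean of 15.0 SOX2 peaks, 20.0 β-catenin peaks and 3.67 LEF1 peaks in a WT CHIR library. In the full lists they held 92.7, 63.3 and 73.0, and Notch1 alone held 40, 15 and 21 SOX2 peaks in the 3 libraries. The full lists differed in length, from 26940 to 1008922 peaks, so their counts were not compared between factors. At Hes1, the full LEF1 lists of WT CHIR cells held 9, 5 and 0 peaks.

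**Figure D3:**
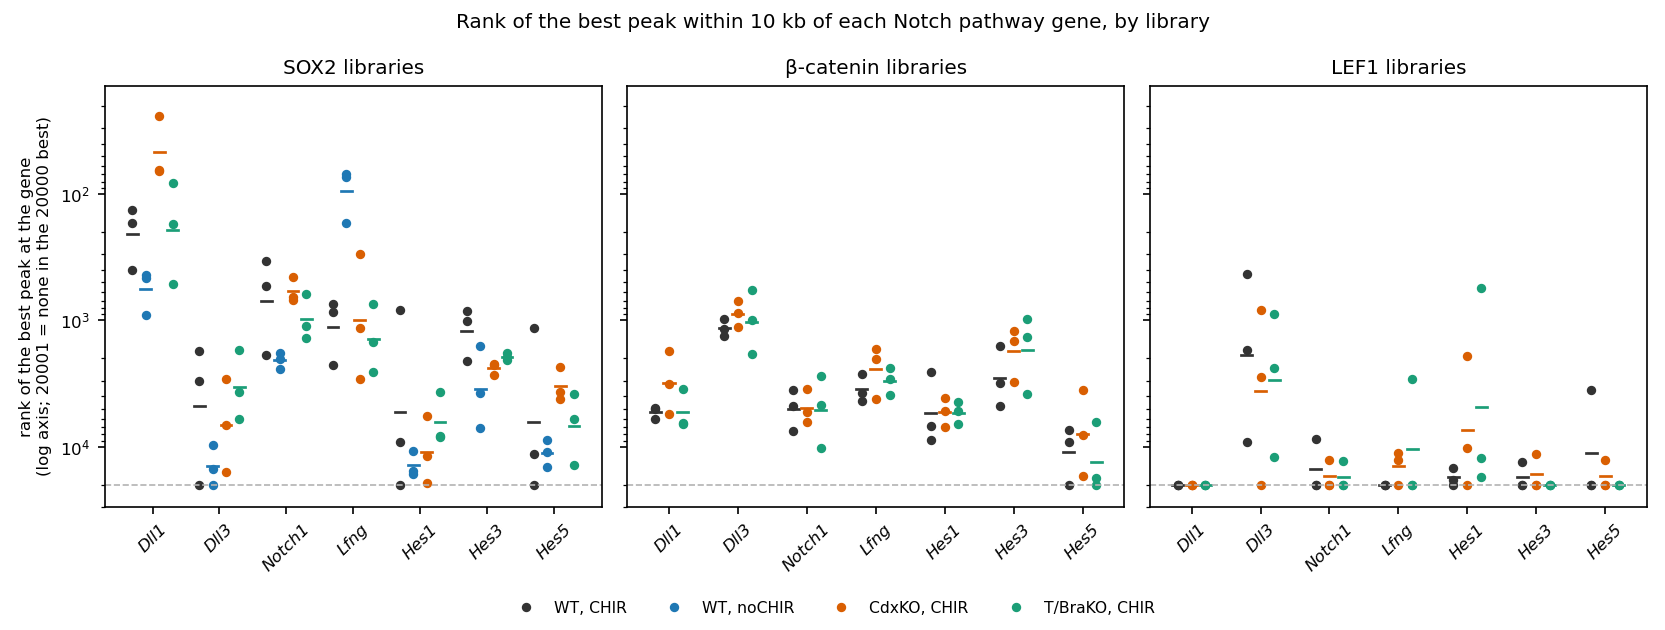
Rank of the best peak at each gene in every library, on a log10 axis with rank 1 at the top, by factor and group. SOX2 ranks of Dll1 lie between 24 and 910 in all 12 libraries, and most LEF1 points of the genes other than Dll3 lie at the bottom, where genes without a peak among the 20000 best are placed.

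Dll1 encodes a ligand that activates Notch on the neighbouring cell, and it had the strongest SOX2 occupancy of the 7 genes in WT CHIR cells, with a mean rank above that of 99.4% of all genes. Its best SOX2 peak lay in all 12 libraries at 1 intergenic site, chr17:15380175-15381899, at -3967 bp. The site ranked 399, 133 and 169 in the WT CHIR libraries, with 18.1-, 26.8- and 30.9-fold enrichment. In WT noCHIR cells it ranked 466, 910 and 438, with 32.4-, 30.0- and 35.2-fold enrichment. The WT CHIR ranks were all better than the noCHIR ranks, by a factor of 2.75 in the mean, while the fold enrichments stood the other way (25.3 ± 6.55 with CHIR and 32.5 ± 2.57 without, SD, n = 3 each). With peaks ordered by fold in place of -log10 q, the ranks of the 2 groups overlapped.

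In CdxKO cells the Dll1 site at -3967 bp ranked 24, 66 and 65, ahead of every WT CHIR library. The enrichment there was 72.2-, 55.7- and 61.7-fold (63.2 ± 8.35, SD, n = 3), and every CdxKO value lay above every WT CHIR value. Ranks were better than in WT by a factor of 4.43 in the mean, a difference in mean log10 rank of 0.647 ± 0.205 (SE). In T/BraKO cells the ranks were 173, 82 and 513 and the enrichment 30.0-, 53.9- and 13.5-fold, which overlapped WT on both scales. Against the 6 WT and T/BraKO libraries together, the CdxKO ranks were better by a factor of 4.28, with a two-sided exact permutation p of 0.0357 before adjustment and an adjusted p of 1 over all genes.

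β-catenin was called at the same Dll1 site in 9 of 9 libraries, at lower ranks than SOX2. In WT it ranked 4937, 8597 and 5031 with 7.18 ± 1.46-fold enrichment (SD, n = 3), in CdxKO 1763, 5529 and 3184 with 12.6 ± 5.11-fold, and in T/BraKO 3487, 6619 and 8608 with 9.61 ± 5.32-fold. The 3 groups overlapped in fold enrichment. LEF1 had no peak among the 20000 best at Dll1 in any of its 9 libraries. A second site at -156 bp, in an exon of A930024N18Rik, was called for SOX2 in 8 of 12 libraries and in 3 of 3 only in noCHIR, and for neither β-catenin nor LEF1.

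Dll3 encodes a divergent Delta protein that stays inside the cell and inhibits Notch there. Of the 7 genes, it was the one at which LEF1 stood out. The site at +12148 bp, past the end of Dll3 and in an intron of Selenov, was the only one of the 85 sites that was called in WT CHIR cells in at least 2 of 3 libraries of all 3 factors. β-catenin ranked there 1178, 1325 and 980 in WT, 875, 1134 and 702 in CdxKO and 1003, 1847 and 580 in T/BraKO. In the mean these were the best β-catenin ranks of the 7 genes in all 3 groups, with 23.0 ± 8.24, 27.8 ± 5.52 and 23.5 ± 10.2-fold enrichment (SD, n = 3 each).

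LEF1 at the Dll3 +12148 site was strong but uneven between libraries. It ranked 434, 9155 and 1709 in WT and 2406, 12088 and 896 in T/BraKO, and was called in 3 of 3 libraries of both. In CdxKO the ranks were 44890, 420082 and 835 in the full lists, so only the library of replicate 3 called it. Enrichment was 10.6 ± 4.43-fold in WT, 7.94 ± 3.87-fold in CdxKO and 9.15 ± 1.24-fold in T/BraKO (SD, n = 3 each), and the groups overlapped.

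SOX2 at this Dll3 site ranked 39734, 3034 and 2839 in the WT CHIR libraries, with 8.46-, 9.45- and 12.2-fold enrichment. Without CHIR it was in all 3 full lists but in none of the 20000 best, with 4.29-, 2.85- and 4.55-fold enrichment. Every noCHIR fold thus lay below every WT CHIR fold (3.90 ± 0.919 against 10.0 ± 1.95, SD, n = 3 each). With CHIR, SOX2 was called there in 2 of 3 CdxKO and 3 of 3 T/BraKO libraries. At the start of Dll3, a site at -11 bp was called in 9 of 12 SOX2 and 8 of 9 β-catenin libraries, at SOX2 ranks of 43129, 3112 and 1768 and β-catenin ranks of 7762, 2541 and 3314 in WT CHIR cells.

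Notch1 encodes the receptor. Its strongest SOX2 site, at +12478 bp from the GENCODE start, lies -363 bp from the start that RefSeq gives for Notch1, and a second at +14158 bp lies 1317 bp past that start. SOX2 was called at both in 12 of 12 libraries. At +12478 bp it ranked 337, 2746 and 536 in WT CHIR, 3972, 2994 and 1811 in noCHIR, 452, 692 and 656 in CdxKO and 1113, 1378 and 624 in T/BraKO. The noCHIR ranks were poorer than the others, apart from WT CHIR replicate 2. Enrichment overlapped between all 4 groups, from 14.9 ± 1.45-fold in T/BraKO to 23.7 ± 7.16-fold in CdxKO (SD, n = 3 each).

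The Notch1 site at +14158 bp was the one site of the 7 genes at which β-catenin was called in 3 of 3 libraries of a mutant and 0 of 3 of WT. In T/BraKO it ranked 11125, 4694 and 10907. The WT lists had no peak there in replicate 1 and ranks of 39174 and 29999 in the others, and CdxKO ranked 5353, 12704 and 39131. Of 67851 sites with a β-catenin call in either group, 0.819% were called in 3 of 3 T/BraKO and 0 of 3 WT libraries, and 1 of the 38 at the 7 genes was. The fold enrichment overlapped, at 4.86 and 7.23 in the 2 WT libraries with a peak and 7.44, 10.0 and 4.67 in T/BraKO. A further site at +29646 bp, in a Notch1 intron, was called for β-catenin in 8 of 9 libraries and for SOX2 in 2 of 12.

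Lfng encodes a glycosyltransferase of the Golgi that adds sugars to Notch and changes its response to ligands. It gave the widest gap of the 7 genes between the SOX2 libraries with and without CHIR. The site at +4787 bp (chr5:140610979-140612546), in an Lfng intron, ranked 74, 69 and 171 in WT noCHIR and 868, 2276 and 747 in WT CHIR. Enrichment was 66.1-, 72.6- and 44.2-fold without CHIR and 17.6-, 10.1- and 22.4-fold with it (61.0 ± 14.9 against 16.7 ± 6.21, SD, n = 3 each). No library of either group overlapped the other on either scale, and the ranks were better without CHIR by a factor of 11.9, a difference in mean log10 rank of 1.08 ± 0.198 (SE).

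The CHIR libraries of the other genotypes stood with WT CHIR at the Lfng +4787 site. CdxKO ranked 1149, 299 and 2901 with 22.7 ± 11.7-fold enrichment and T/BraKO 1497, 742 and 2552 with 15.0 ± 3.96-fold (SD, n = 3 each). Against the 9 CHIR libraries of the 3 genotypes, the noCHIR ranks were better by a factor of 12.3, with no overlap, and the two-sided exact permutation p was 0.00455, the smallest that 3 against 9 libraries can give. Its adjusted p over all genes was 0.145.

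β-catenin was called in 9 of 9 libraries at this Lfng site and in 9 of 9 at a second, intergenic one at -705 bp. The sites differed in SOX2, which was called in 12 of 12 libraries at +4787 bp and in 1 of 12 at -705 bp. At -705 bp β-catenin ranked 3733, 4362 and 2675 in WT, with 11.8 ± 4.60-fold enrichment, 13.1 ± 5.44-fold in CdxKO and 9.42 ± 3.97-fold in T/BraKO (SD, n = 3 each). These overlapped. LEF1 was called at +4787 bp in 1 CdxKO library and at -705 bp in none.

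**Figure D4:**
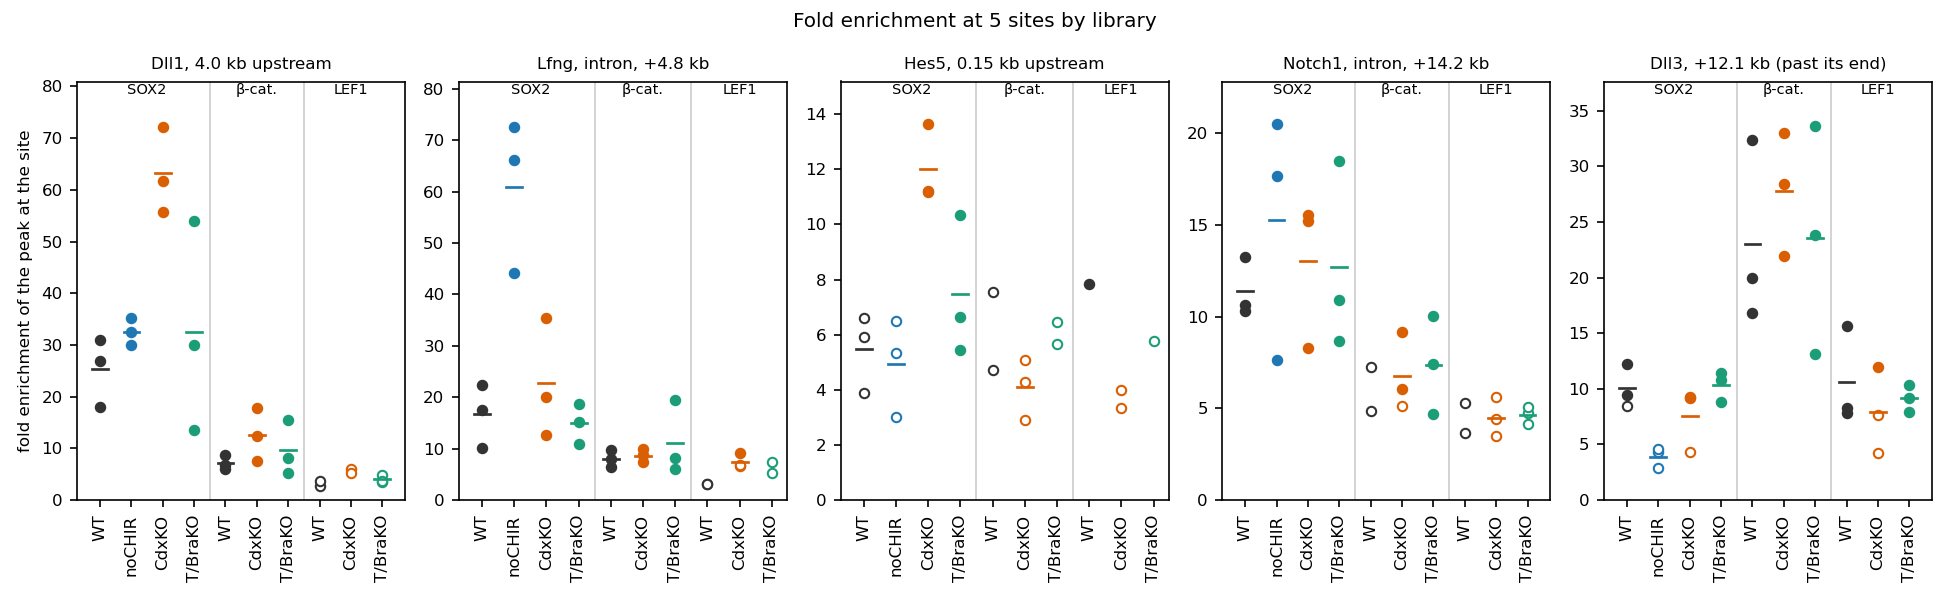
Fold enrichment of the SOX2, β-catenin or LEF1 peak of every library at named sites, by group, with filled points for peaks among the 20000 best and open points for peaks found only further down the list, and bars for the mean where all 3 libraries had a peak. SOX2 at Lfng +4787 is highest without CHIR, at 44.2 to 72.6, and SOX2 at Dll1 -3967 is highest in CdxKO, at 55.7 to 72.2.

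Hes1 encodes a bHLH repressor, the best known target of Notch, and its best SOX2 peak differed between libraries in place and rank. In WT CHIR replicate 1 it lay at -8802 bp (rank 831, 19.6-fold) and in replicate 3 at +4757 bp (rank 9197, 7.71-fold). Replicate 2 had none among its 20000 best. The β-catenin site was steadier. At -1081 bp β-catenin was called in 9 of 9 libraries, at ranks of 2551, 6918 and 10680 in WT and with 9.28 ± 1.89, 8.87 ± 1.16 and 9.01 ± 1.89-fold enrichment in WT, CdxKO and T/BraKO (SD, n = 3 each). SOX2 was called there in 1 of 3 WT CHIR, 0 of 3 noCHIR, 3 of 3 CdxKO and 1 of 3 T/BraKO libraries. The LEF1 site with the best mean WT rank lay at +1497 bp, in a Hes1 coding exon, and was called in WT replicate 2 alone, at rank 14722. The best LEF1 peaks of T/BraKO at Hes1 ranked 12324, 17312 and 553.

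The Hes1 site at -8802 bp was described from the full lists. SOX2 had a peak there in all 3 WT CHIR libraries (19.6-, 3.19- and 6.09-fold) and in 0 of 3 CdxKO libraries. Of all sites with a SOX2 peak in the full list of either group, 0.533% showed that pattern, and it was the 1 such site at the 7 genes. β-catenin had a peak there in 3 of 3 WT libraries (8.66-, 7.38- and 4.28-fold) and in 0 of 3 CdxKO libraries, a pattern of 0.679% of sites, again with 1 at the 7 genes. T/BraKO had a SOX2 peak there in 2 of 3 libraries and a β-catenin peak in 2 of 3. The lists differed in length: those of SOX2 held 1008922, 289925 and 205833 peaks in WT CHIR and 163926, 86068 and 172423 in CdxKO, and those of β-catenin 40067, 108507 and 469083 in WT and 85949, 40630 and 140907 in CdxKO. The WT peaks of replicate 2 for SOX2 (rank 269143) and replicate 3 for β-catenin (rank 265560) lay deeper than any CdxKO list reached. For these peaks an absence from CdxKO cannot be told apart from a shorter list. The SOX2 peak of WT CHIR replicate 1 ranked 831, and β-catenin was called there in 2 of 3 WT libraries. Every CdxKO list reached deeper than those ranks, and the reason for the absence was not tested.

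Hes3 encodes a related repressor of neural progenitors. SOX2 was called in 11 of 12 libraries, and β-catenin in 9 of 9, at an intronic site at +1078 bp (chr4:152290030-152291257). β-catenin ranked there 1612, 3114 and 4757 in WT, 1463, 1211 and 3082 in CdxKO and 1353, 974 and 3810 in T/BraKO. Enrichment was 10.5 ± 3.39, 18.0 ± 4.84 and 19.1 ± 8.10-fold (SD, n = 3 each), and the groups overlapped. For SOX2 at this site it was 11.0 ± 7.74-fold in WT CHIR, 15.2 ± 5.73 in noCHIR, 12.2 ± 5.14 in CdxKO and 10.0 ± 6.78 in T/BraKO, which overlapped too. LEF1 was called there in 2 of 9 libraries, and its best WT site, at +2725 bp in a Hes3 intron, was called in WT replicate 1 alone, at rank 13189.

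The best SOX2 rank at Hes3 was 842, 1015 and 2118 in WT CHIR and 2280, 2201 and 2694 in CdxKO, which did not overlap. WT was better by a factor of 1.95, a difference in mean log10 rank of -0.291 ± 0.125 (SE). These ranks came from different peaks of the gene: in WT the best lay at +1078, +5214 and +3571 bp in the 3 libraries. With peaks ranked by fold, the groups overlapped.

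Hes5 encodes the third repressor, and its site next to the start was called for SOX2 in the mutant lines but not in WT. At -150 bp, in an exon of Gm20421, SOX2 ranked 2344, 4366 and 3759 in CdxKO and 3802, 17643 and 15110 in T/BraKO. Every WT CHIR library had a peak there too, but only at ranks of 92702, 172061 and 28743, and the noCHIR ranks were 75521, 22254 and 59550. The site was thus called in 3 of 3 libraries of each mutant and in 0 of 3 of each WT group. The limit for a call was unequal, at a -log10 q of 14.1, 7.28 and 8.20 in WT CHIR. It was 7.71, 6.68 and 7.36 in CdxKO and 7.67, 6.87 and 3.26 in T/BraKO. The uncalled peak of WT CHIR replicate 1 had a -log10 q of 8.46, above the limit of every mutant library. Of all sites with a SOX2 call in either group, 0.951% were called in 3 of 3 CdxKO and 0 of 3 WT CHIR libraries and 0.715% in 3 of 3 T/BraKO and 0 of 3 WT CHIR libraries, and this was the 1 such site at the 7 genes in each comparison.

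Fold enrichment separated only CdxKO at the Hes5 -150 bp site. It was 13.7-, 11.2- and 11.2-fold in CdxKO (SD 1.43, n = 3), above the 6.61-, 3.89- and 5.92-fold of WT CHIR (SD 1.41, n = 3). T/BraKO, at 10.3-, 6.62- and 5.46-fold, overlapped WT CHIR. At a second Hes5 site, intergenic at -2480 bp, SOX2 was called in 3 of 3 CdxKO libraries and in 1 of 3 WT CHIR, 2 of 3 noCHIR and 2 of 3 T/BraKO libraries. β-catenin was called at -2480 bp in 7 of 9 libraries and LEF1 in none, while at -150 bp LEF1 was called in 1 of 9, WT replicate 3, and β-catenin in none.

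Sites shared by SOX2 and β-catenin in WT CHIR cells were counted across the 7 genes. Counting a site for a factor where at least 2 of 3 libraries called it, 9 of the 85 sites had SOX2, 14 had β-catenin, and 6 had both. That was 66.7% of the SOX2 sites and 42.9% of the β-catenin sites, where over all sites the shares were 48.3% and 28.3%. With 9 and 14 sites, the difference from all sites was not tested. Of the 1386 sites called in every SOX2 library, 4 lay at the 7 genes (Dll1 -3967, Notch1 +12478, Notch1 +14158 and Lfng +4787). Of 2911 called in every β-catenin library, 6 did (Dll1 -3967, Dll3 +12148, Lfng -705, Lfng +4787, Hes1 -1081 and Hes3 +1078), and of 232 called in every LEF1 library none did.

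The comparisons of best ranks were read against all genes tested. A gene was counted as apart where the ranks of the 3 libraries of one group did not overlap those of the other. Such a comparison of 3 against 3 libraries cannot give a two-sided exact permutation p below 0.1, and no gene of the annotation passed an adjusted p of 0.05 in any comparison. With CHIR against noCHIR, Dll1 alone had better SOX2 ranks with CHIR, where 5.77% of all genes did, and Lfng alone had better ranks without, where 7.61% of all genes did. In WT against CdxKO, Hes3 alone had better SOX2 ranks in WT (3.11% of all genes) and Dll1 alone in CdxKO (4.91% of all genes). With 7 genes, 1 is the smallest count above 0, and these counts were not read as a result about the 7 genes together.

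In the other 5 comparisons none of the 7 genes was apart. The share of all genes apart in either direction was 6.71% for SOX2 in WT against T/BraKO, 7.34% and 9.32% for β-catenin in WT against CdxKO and T/BraKO, and 5.13% and 5.14% for LEF1 in the same comparisons, in which 6 of the 7 genes could be tested. For β-catenin, where all 7 genes were tested, ranks thus overlapped between the genotypes at every one of them. A difference smaller than the spread of 3 libraries could not be detected.

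Larger sets allow a smaller p for a single gene. In noCHIR against the 9 SOX2 CHIR libraries of the 3 genotypes, Lfng (0.00455), Notch1 (0.0136) and Dll1 (0.0318) had a two-sided exact permutation p under 0.05, 3 of 7 genes where 8.91% of all genes did. Lfng had better ranks without CHIR, and Notch1 and Dll1 had poorer ones, by factors of 2.80 and 4.62. The noCHIR libraries were all WT, while the CHIR libraries included both mutants, so genotype enters this comparison. At Dll1 the CdxKO ranks of 24, 66 and 65 were among those pooled, and the factor against WT CHIR alone, given above, was smaller. Their adjusted p-values were 0.145, 0.273 and 0.457 by Benjamini-Hochberg adjustment of the exact permutation p. Leaving out noCHIR replicate 2 raised the exact p of Notch1 to 0.0545, and that of Dll1 rose to between 0.0545 and 0.127 without any 1 of the 3 noCHIR libraries, CdxKO replicate 2 or 3, or T/BraKO replicate 2. With peaks ranked by fold, the exact permutation p of Dll1 was 0.182. The exact p of Lfng stayed under 0.05 without any 1 library, at 0.0182 or less.

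Of the SOX2 libraries, CdxKO against WT and T/BraKO gave 1 of 7 genes with an exact permutation p under 0.05 (Dll1), against 3.02% of all genes, and T/BraKO against WT and CdxKO gave 0, against 2.11%. The same counts were 0 for β-catenin in CdxKO (4.6% of all genes) and T/BraKO (5.64%), and 0 for LEF1 in CdxKO (2.19%) and T/BraKO (2.41%). The exact permutation p of Dll1 rose to 0.0536 without WT CHIR replicate 2 or T/BraKO replicate 1, and to 0.0714 without any 1 of the 3 CdxKO libraries.

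The other 32 genes of the pathway were counted in the same way. They were a list of ligands, receptors, sugar transferases, proteases, nuclear partners, modulators and bHLH targets. With CHIR against noCHIR, 2 of 31 tested had better SOX2 ranks with CHIR and 3 without. For SOX2 in WT against CdxKO, 1 of 31 was better in WT and 2 in CdxKO, and against T/BraKO 0 of 30 and 1. The β-catenin counts were 1 and 0 of 27 against CdxKO and 1 and 3 of 28 against T/BraKO, and the LEF1 counts 1 and 1 of 30, and 3 and 2 of 30. Both directions together, the LEF1 share against T/BraKO lay above the 5.14% of all genes. The β-catenin share against T/BraKO lay above 9.32%. The shares for SOX2 against T/BraKO and β-catenin against CdxKO lay below the 6.71% and 7.34% of all genes. In the remaining comparisons the share lay above that of all genes. These differences were not tested. Among the genes apart, the largest difference with CHIR was at Adam17, a protease that cuts Notch outside the cell, which with CHIR had no SOX2 peak among the 20000 best of WT replicate 1 and ranks of 10343 and 8216 in the others, and ranks of 1576, 967 and 1501 without. Poglut1, which adds glucose to Notch, had no SOX2 peak among the 20000 best in WT CHIR cells, ranks of 1560, 2267 and 2873 in CdxKO, and ranks of 1146, 16791 and 4261 in T/BraKO.

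Among genes whose groups did not overlap in the remaining comparisons, the largest differences were at Numb and Rbpj for β-catenin and at Maml1 and Hes7 for LEF1. Numb, an inhibitor of Notch, had weak β-catenin peaks in WT at ranks of 16477, 14445 and 11590 and none among the 20000 best in CdxKO or T/BraKO. Rbpj, the DNA-binding partner of cleaved Notch, ranked 3464, 3052 and 2047 in WT and 1423, 1688 and 1067 in T/BraKO. Maml1, a coactivator of that complex, had LEF1 ranks of 7180, 793 and 604 in WT and in CdxKO a rank of 13692 in replicate 1 and no peak among the 20000 best of the others. Hes7, a clock gene of the presomitic mesoderm, had a LEF1 peak among the 20000 best of WT in replicate 1 only, at rank 3991, and ranks of 1613, 500 and 2294 in T/BraKO. No gene of this list passed an adjusted p of 0.05, with Benjamini-Hochberg adjustment of the exact permutation p over all genes.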

How the data were processed

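The paper states that the authors used the nf-core chipseq pipeline, with trimming by Trim Galore, alignment to the mm10 build by BWA, read filters from SAMtools, BAMTools and picard, and MACS2 narrow peaks for each library at the default q. The control input of each library is not given in the sources used here. Of the deposited values, the ratio (fold enrichment at the summit over the local background) was used as such, and the deposited -log10 q and -log10 p set the order of peaks. The deposited score, rescaled from -log10 q, was not used, and the deposited summit offset placed each window.

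Peaks were ranked within each list by -log10 q, then -log10 p, fold, chromosome and start. Between 2 and 8672 peaks of a list shared the -log10 q of rank 20000, so that for some member peaks near the limit the order of ties decided whether they were kept. Genes came from the basic GENCODE M21 annotation and sequences from GRCm38.p6, both of the build of the lists. All 7 genes were matched by symbol.

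The 7 genes, the list of 32 other pathway genes and the tests were chosen with earlier results of these data known. All 7 genes were named. Sites were named where they had the best mean rank of a factor over the WT CHIR libraries or were called in every library of a group and in none of the group it was compared with. The sites Dll1 -156, Notch1 +14158 and Hes3 +5214 or +3571 and those described from the full lists were added because a result turned on them. Of the other pathway genes, the 4 with the best mean rank per factor and the 1 with the largest difference among those whose groups did not overlap, per comparison, were named.

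Mean log10 ranks of 3 against 3 libraries were compared in 7 comparisons with two-sided exact permutation tests, and 1 condition against the others with the same test over 84 or 220 splits, with Benjamini-Hochberg adjustment over all genes tested. Since only peak lists were used, no count-based test was run. Libraries were not treated as paired by replicate number. Correlations of deviations between same-numbered libraries were low, from -0.0511 to 0.0813, and those of replicate 3 were positive in all 7 comparisons. Low correlations of such ranks cannot exclude pairing. The steps were tested on simulated data. Python 3.11.15, numpy 2.4.6, pandas 2.3.3, scipy 1.17.1, pysam 0.24.0 and matplotlib 3.10.9 were used. Alternatives were the 5000 best peaks, full lists, ranks by fold, a 5 kb extension, summits in the window, sites merged within a factor, 50 bp around summits, a replicate block, each library left out and, chosen after seeing the data, averaged tied ranks.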

Additional observations from a re-analysis of the deposited data

How the results depend on the processing

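The numbers of the 7 genes that stood apart in 3 against 3 libraries stayed within 1.5 times their value with the 5000 best peaks, a 5 kb extension, summits in the window and averaged tied ranks, an alternative chosen after seeing the data under which Notch1 joined Dll1 and Lfng for CHIR against noCHIR (3 genes in place of 2). Ranked by fold, SOX2 in WT against CdxKO gave 1 gene in place of 2, and from the full lists LEF1 in WT against T/BraKO gave 1 in place of 0. The Dll1 difference in mean log10 rank between CHIR and noCHIR became -0.217 when ranked by fold (exact permutation p = 0.6), and that of Hes3 in WT against CdxKO -0.216 (exact permutation p = 0.4). With a replicate block, which asks only that all 3 numbered pairs point the same way (smallest exact p 0.25), the counts were 4 for SOX2 with CHIR against noCHIR in place of 2, 4 for β-catenin in WT against CdxKO in place of 0 and 1 for β-catenin against T/BraKO in place of 0. The replicate block changed no other of the 7 counts. Shares of all genes were not computed under these alternatives, the looser rule of the replicate block included. The counts were thus not read as a result about the 7 genes.

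Leaving out 1 library at a time, the counts apart ran from 2 to 4 for CHIR against noCHIR (4 without WT CHIR replicate 2), from 2 to 3 for SOX2 in WT against CdxKO, from 0 to 3 for β-catenin against CdxKO (3 without CdxKO replicate 2), and from 0 to 1 for the other 4. The numbers with an exact p under 0.05 ran from 2 to 4 for noCHIR, from 0 to 1 for SOX2 in CdxKO and from 0 to 2 for β-catenin in CdxKO (2 without CdxKO replicate 2), and stayed at 0 in the other 4. Sites called in every library of one group and none of the other ran from 0 to 4 for CHIR against noCHIR (4 without noCHIR replicate 3), from 1 to 3 for SOX2 in WT against CdxKO, from 1 to 2 for SOX2 against T/BraKO, from 0 to 1 for β-catenin against CdxKO, from 1 to 3 for β-catenin against T/BraKO and from 0 to 1 for LEF1 against CdxKO. From the full lists these sites numbered 2, 2, 1, 1, 0 and 0. The order is CHIR, SOX2 CdxKO, SOX2 T/BraKO, β-catenin CdxKO, β-catenin T/BraKO and LEF1 CdxKO. A Dll1 site at +804 bp is in the first 2 counts. SOX2 had a full-list peak there in 3 of 3 noCHIR, 3 of 3 CdxKO and 2 of 3 T/BraKO libraries. In WT CHIR it had one in 0 of 3. The shortest WT CHIR list held 205833 peaks, and the longest noCHIR and CdxKO lists held 201773 and 172423. The reason for the absence was not tested. Apart from those given for Hes1, no shares of all sites stand beside these counts. The difference of Hes1 for SOX2 in WT against T/BraKO ran from -0.361 to 0.329, the latter without WT CHIR replicate 1, and that of Dll1 for β-catenin in WT against T/BraKO ran from -0.0908, without T/BraKO replicate 1, to 0.0483. Both changed sign, and the causes were not tested.

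Summed over the 7 genes, a WT CHIR library held a mean of 7.67 SOX2, 6 β-catenin and 1 LEF1 peaks among its 5000 best, and 92.7, 63.3 and 73.0 in the full lists. Within 50 bp of summits 2.86% of the 35 sites held CDX letters, against 11.4% within 100 bp. Over all sites called in at least 3 libraries these shares were 5.77% and 11.3%. Within 50 bp the SOX letters were at 25.7% of the 35 sites (15.9% of all sites) and the RBPJ letters at 25.7% (9.90%). The TCF/LEF letters were at 17.1% (18.0%) and the T-box letters at 2.86% (0.679%). Ranks compare libraries of unequal strength only by order, the read depth is unknown, and 3 libraries a group limit what can be detected.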

Other observations

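Some of the 32 other pathway genes had better mean ranks in WT CHIR cells than any of the 7. These were Nrarp for SOX2, Hes7 and Maml2 for β-catenin, and Maml2, Notch2 and Maml1 for LEF1. Hes7, a bHLH repressor of the segmentation clock, had the best β-catenin peaks: it ranked 57, 6 and 75 in the WT libraries, 11, 53 and 98 in CdxKO and 26, 32 and 62 in T/BraKO, all 9 ahead of the best β-catenin peak at Dll3. Its SOX2 ranks were 1952, 1377 and 726 in WT CHIR and 2478, 3279 and 3727 in noCHIR, which did not overlap. Nrarp, a Notch target that feeds back on the pathway, had SOX2 ranks of 323, 90 and 43 in WT CHIR, 74, 84 and 28 in CdxKO and 401, 176 and 14 in T/BraKO. Its noCHIR ranks were 1368, 1291 and 151, which overlapped WT CHIR.

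Maml2, a coactivator of the Notch complex and a long gene, had high ranks for all 3 factors. In WT CHIR libraries it ranked 644, 300 and 520 for SOX2, 398, 496 and 815 for β-catenin and 976, 242 and 256 for LEF1. Hes7 ranked 4th or better of the list for SOX2 and β-catenin, as did Notch3 for SOX2 (609, 1911 and 1918), the receptor Notch2 and Rbpj for β-catenin (1980, 3925 and 1820, and 3464, 3052 and 2047), and Notch2, Maml1 and Maml3 for LEF1. For LEF1, Notch2 ranked 1706, 1806 and 684, Maml1 7180, 793 and 604, and Maml3 2024, 740 and 5782. None of these was tested against the 7 genes.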
